A study of Glycine max with 16 samples.

Results

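The comparison concerns the chromatin sites of LEAFY COTYLEDON1 (LEC1) in soybean embryos at early maturation (EM), mapped with an antibody against a GmLEC1 peptide, and at the cotyledon stage (COT), mapped with an antibody against recombinant GmLEC1 protein. It covers the 49566 peaks of the EM peptide list and the 51845 peaks of the COT list, 101411 of the 220697 peaks in all 4 lists of the series. Both lists come from Glycine max cultivar Williams 82, greenhouse-grown and of no labelled mutation or treatment. EM embryos were dissected from seeds of 6 to 7 mm and COT embryos from seeds of 2.5 to 3.5 mm. Each list rests on chromatin immunoprecipitation sequencing (ChIP-seq) of 2 biological replicates and on 2 libraries of total chromatin (input). A list of EM peaks made with the anti-recombinant antibody (55140 peaks) served as a second, separately made EM list, and a mid-maturation (MM) list made with that same antibody (64146 peaks, seeds of 200 to 250 mg) as a later stage.

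LEC1 is the B subunit of a nuclear factor Y complex, a class of transcription factor that recognises CCAAT-containing DNA. In Arabidopsis it is needed for cotyledon identity and for the maturation programme, in which the embryo fills with storage protein and oil and becomes tolerant of desiccation. Between the cotyledon stage and early maturation a legume embryo passes from building its organs to filling them, which is why peaks present at only one of these stages are of interest. The embryo was taken whole, so a peak present in fewer cells and a peak with less LEC1 per cell cannot be told apart.

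Stage and antibody both differ between the EM peptide and COT lists. A gain is here an EM peptide peak with no COT peak overlapping it by at least 1 bp, and a loss is a COT peak with no EM peptide peak. These are presences and absences of called peaks and not measurements of binding. Each gain or loss was then looked up in the EM anti-recombinant list. A gain that has an EM anti-recombinant peak, and a loss that has none, are counted as appearing whichever EM antibody is used. The EM anti-recombinant peak of such a gain was not itself required to lack a COT peak. The deposited lists hold no values per replicate and no read counts, so no test over replicates could be made, the depth behind the lists is unknown, and every comparison below is a description. Intervals are exact binomial (Clopper-Pearson, 95%) and cover counting error over peaks, which are not independent replicates.

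Most sites were common to both lists, and about 60% of the sites that differed did so with either EM antibody. Of the EM peptide peaks, 13012 were gains (26.3%), and of the COT peaks, 15094 were losses (29.1%). An EM anti-recombinant peak overlapped 7795 of the gains, or 59.9% (59.1 to 60.7). No EM anti-recombinant peak overlapped 9322 of the losses, or 61.8% (61.0 to 62.5). The remaining 5217 gains and 5772 losses depended on which EM list was consulted. Which kind was the more numerous is not settled by these counts, since lists cut to equal length gave 13749 gains and 13609 losses. The losses found with both antibodies numbered 14063 when a reciprocal overlap of 50% was asked for, and 6057 when a gap of up to 1 kb also counted as shared. The background for the gains is that 82.6% of all EM peptide peaks, and 90.7% (90.4 to 91.0) of those with a COT peak, had an EM anti-recombinant peak. For the losses it is that 24.6% of all COT peaks, and 9.28% (8.98 to 9.58) of those with an EM peptide peak, lacked one. The COT peaks absent from both EM lists made up 18.0% of the COT list, and 64.3% of COT peaks were present in both EM lists.

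The share of differences that appeared with either antibody depended on the list from which the differences were first drawn. With the EM anti-recombinant list as the starting point, 16406 of its peaks were without a COT peak (29.8%), and the peptide antibody found 7777 of these, or 47.4% (46.6 to 48.2). The 12731 COT peaks without an EM anti-recombinant peak lacked a peptide peak in 9322 cases, or 73.2% (72.4 to 74.0). The anti-recombinant list is the longer of the EM lists. Of the 18503 COT peaks missing from at least 1 EM list, 50.4% were missing from both. These comparisons share the COT list.

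Joined into regions over all 4 lists, the peaks gave 81090 regions, of which 32009 (39.5%) held a peak of every list. The regions with both EM lists and no COT peak numbered 7462, and those with a COT peak and neither EM list numbered 9114. The first kind held an MM peak in 6685 cases and the second in 2136. A region found at COT alone, in 6978 cases, was therefore about as frequent as a region found in both EM lists and at MM but not at COT.

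Gains and losses were concentrated among the weaker peaks of their lists, and in deciles 1 to 7 gains found with both antibodies made up a larger share of the EM peptide peaks than losses found with both did of the COT peaks. The score is the authors' own value per peak, of a scale not given in the sources used here, and it served only to order the peaks of a single list into 10 equal groups (deciles, 1 being the strongest). In decile 1 of the EM peptide list, 51 of 4956 peaks were gains, and in decile 1 of the COT list, 27 of 5184 peaks were losses. All 51 of those gains appeared with either EM antibody, and 4 of those losses did. In decile 5 the gains with both antibodies were 17.3% of the EM peptide peaks and the losses with both were 9.72% of the COT peaks. In decile 10 the order was turned round, at 18.0 and 49.0%.

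**Figure D1:**
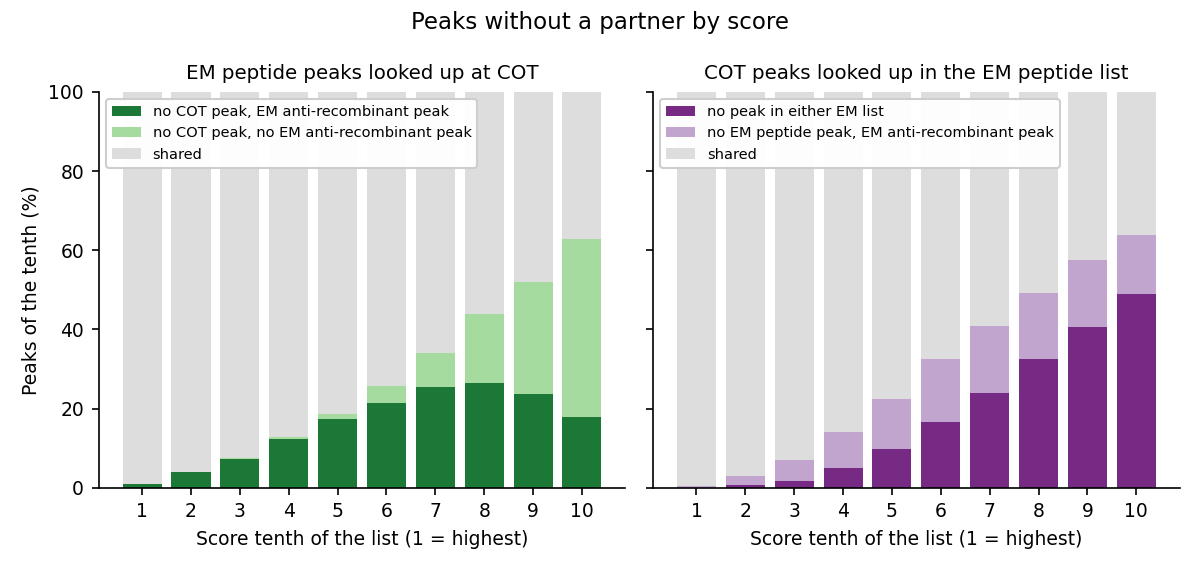
Share of peaks (%, y axis) without a partner in each score decile (x axis, 1 is the strongest), for EM peptide peaks looked up at COT (left) and COT peaks looked up in the EM peptide list (right). Dark parts are differences that appear with either EM antibody, light parts those that depend on the EM list, and grey the shared peaks. Gains with both antibodies peak in decile 8 at 26.4%, whereas losses with both climb to 49.0% in decile 10.

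In whole numbers, the upper 50% of the EM peptide list held 2093 gains found with both antibodies, against 885 losses in the upper 50% of the COT list. The lower 50% held 5702 such gains and 8437 such losses. Without regard to the second EM list, the counts were nearer to each other, with 2180 gains and 2431 losses in the upper 50%. With the lists searched also cut to their upper 50%, the differences found with both antibodies were 4239 gains and 4832 losses, so that the order depends on searching the whole lists. The definitions are not mirror images: a gain with both antibodies needs a peak in both EM lists and an absence at COT, whereas a loss with both needs a single COT peak and an absence from both EM lists.

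The 5000 highest-scoring peaks of each list are nearly the same peaks as decile 1, and are given for the position of their gains and losses. Among them were 52 gains (1.04%) and 23 losses (0.460%). The EM anti-recombinant list held all 52 of the gains, as it did all of the top 5000 EM peptide peaks. It also held 21 of the 23 losses, against 99.9% of the top 5000 COT peaks. Thus 2 strong COT peaks were missing from both EM lists. The 52 gains lay on 20 chromosomes with at most 5 on any of them. Of these, 41 were more than 1 kb from any COT peak and 1 was within 200 bp, so that few lay beside a COT peak. All 52 had an MM peak, as did all of the top 5000 EM peptide peaks. Of the 23 losses 20 had one, against 99.9% of the top 5000 COT peaks.

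How often the second antibody gave the same gain followed the score, as it did for all peaks of the list. From decile 1 to decile 4 of the EM peptide list, 97.3 to 100% of the gains had an EM anti-recombinant peak. The share was 92.7% in decile 5, 74.99% in decile 7 and 28.6% in decile 10, against 96.6, 85.2 and 49.6% of the EM peptide peaks with a COT peak in those deciles. From decile 3 on, gains had an EM anti-recombinant peak less often than the peaks with a COT peak in the same decile, and in deciles 1 and 2 both stood at 100%. For the losses, the share that was absent from the EM anti-recombinant list as well was 14.8% in decile 1, 43.4% in decile 5 and 76.6% in decile 10. Among COT peaks with an EM peptide peak it was 0.0970% in decile 1, 8.38% in decile 5 and 29.0% in decile 10. Of the 27 losses in decile 1, 23 were present at EM with the antibody also used at COT, a smaller share than among shared peaks of that decile.

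The 10 highest-scoring gains found with both antibodies stood high in their list and far from any COT peak. They lay on 7 chromosomes, were 450 to 750 bp wide, and took places 681 to 1640 by score in the EM peptide list of 49566. Their places in the EM anti-recombinant list ran from 148 to 15983 and in the MM list from 540 to 9276. All 10 had an MM peak, as did every EM peptide peak of decile 1. The nearest COT peak was between 1900 and 165600 bp away. The build of the coordinates is Gmax275, as the peak names give it. Genes at these sites are not named, since an annotation of that build was not used here.

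The first of them lay at chr7:17420651-17421200, in place 681 of the EM peptide list, 3220 of the EM anti-recombinant list and 540 of the MM list. Its nearest COT peak was 43300 bp away. The second, at chr3:1665501-1666100, spanned exactly the same bases in the EM anti-recombinant list, where it stood in place 148. It was 15600 bp from the nearest COT peak. The peak at chr9:46486901-46487500 was placed 777 with the peptide and 723 with the anti-recombinant antibody, the closest agreement of the 10. It was 4900 bp from COT.

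The widest of the 10, at 750 bp, lay at chr5:24777801-24778550, 31050 bp from the nearest COT peak, in places 814 and 1175 of the EM peptide and EM anti-recombinant lists and 1221 at MM. The most isolated lay at chr20:9493451-9494050, with the nearest COT peak 165600 bp away. It was placed 961 with the peptide and 4975 with the anti-recombinant antibody. A second site of that chromosome, chr20:24895001-24895450, was placed 1640 and 1370 in these lists. The others were at chr13:23668551-23669100, chr10:3259051-3259550, chr9:41664201-41664850 and chr3:1938301-1938750. The last stood in place 1630 with the peptide antibody and 15983 with the other, the widest disagreement of the 10.

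The 10 highest-scoring losses found with both antibodies began lower in their list and were less isolated. They took places 2648 to 6778 of the 51845 COT peaks, were 300 to 850 bp wide and lay on 9 chromosomes. The nearest EM peptide peak was between 100 and 11000 bp away and the nearest EM anti-recombinant peak between 300 and 14000 bp. Of these, 6 had an MM peak, in places 42611 to 63861 of 64146 and 100 to 250 bp wide. An MM peak overlapped 99.9 and 99.0% of all COT peaks in deciles 1 and 2, where these sites stood. The MM partners of the losses were all narrow and low in their list, unlike those of the gains, which were 500 to 700 bp wide. The gains were chosen for an EM anti-recombinant peak and the losses for lacking one, and MM was mapped with that antibody.

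The first loss lay at chr7:38104601-38105100, with an MM partner 150 bp wide in place 63718, against place 2648 at COT. The nearest EM peptide peak was 2450 bp away and the nearest EM anti-recombinant peak 7500 bp. The second, at chr1:53107501-53107950, had its nearest peak of any other list 10050 bp away, at MM. It is 1 of 4 of these sites without an MM peak.

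The other 3 without an MM peak were at chr8:4217751-4218450, chr9:43014401-43015150 and chr9:42516151-42517000. The last was the widest of the 10 at 850 bp, and its nearest EM peptide peak was 3350 bp away. At chr5:26856751-26857050, an EM peptide peak stood 100 bp from the COT peak, and at chr12:2308551-2309200, one stood 250 bp away and an EM anti-recombinant peak 300 bp away. These sites count as losses by the overlap rule although EM peaks lie beside them. The remaining sites were at chr14:44900801-44901250, chr15:10382001-10382400 and chr11:4907851-4908350.

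Differences that depended on the EM antibody had their own extremes. The strongest gain without an EM anti-recombinant peak stood only in place 12739 of the EM peptide list, on scaffold 22 at 497851 to 498150, so no peak of the upper 20% of that list was a gain of this kind. The next 4 lay on chromosomes 7, 1, 17 and 12, and all 5 were 300 or 350 bp wide and within 2150 bp of a COT peak. An MM peak overlapped 4 of the 5. The strongest loss with an EM anti-recombinant peak, at chr8:11991851-11992300, was higher in its list. It stood in place 4598 of the EM anti-recombinant list, 3658 of the MM list and 1883 of the COT list, and 950 bp from the nearest EM peptide peak.

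Sites at chr11:12688651-12689050 and chr6:12964401-12964800 had the same profile. The first was in place 7679 at EM with the anti-recombinant antibody, 7269 at MM and 2905 at COT, with the nearest peptide peak 600 bp away. The second was in places 2942, 8920 and 3631 of these lists, with the nearest peptide peak 3250 bp away. They were thus called in every list made with the anti-recombinant antibody and not in the list made with the peptide antibody. At chr16:31615551-31615950 the EM peptide peak stood 100 bp away, and at chr7:35371151-35371450 the EM anti-recombinant partner was only 150 bp wide, in place 40395.

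The MM list had no part in choosing gains or losses, and it held most of the gains and few of the losses found with both antibodies. An MM peak overlapped 88.6% (87.8 to 89.3) of the gains found with both antibodies and 25.1% (24.3 to 26.0) of the losses found with both. The share over whole lists was 88.3% of all EM peptide peaks and 79.0% of all COT peaks. Without regard to score, the gains thus stood at the level of their list and the losses far under theirs. Gains and losses were mostly weaker peaks, however, and weaker peaks of either list had an MM peak less often. Over all peaks of decile 10 the share was 51.3% in the EM peptide and 48.4% in the COT list. Gains in the peptide list only had an MM peak for 48.2% (46.9 to 49.6), and losses from the peptide list only for 70.7% (69.5 to 71.9). Peaks present in the EM peptide, EM anti-recombinant and COT lists had one for 96.9% of both the EM peptide and the COT peaks. The MM list was made with the anti-recombinant antibody, and the gains found with both were chosen for having a peak with that antibody at EM and the losses for lacking one. Before that choice, 72.4% (71.6 to 73.2) of all gains and 42.6% (41.8 to 43.4) of all losses had an MM peak. With lists of equal length the shares for gains and losses found with both were 77.9 and 13.3%.

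Peaks of like score gave a similar contrast, but the choice by the anti-recombinant antibody at EM remained in it. Peaks present in all 3 lists were chosen for having that peak, and losses found with both for lacking it. Over all deciles, COT peaks with an EM peptide peak and no EM anti-recombinant peak had an MM peak for 66.1%. In decile 5 of the EM peptide list 97.2% of the gains found with both antibodies had an MM peak, against 98.6% of peaks present in all 3 lists. In decile 10 these shares were 70.7 and 76.9%. In decile 5 of the COT list, 35.3% of the losses found with both antibodies had an MM peak, against 96.6% of peaks present in all 3 lists, and in decile 10 the shares were 19.9 and 90.1%. Over all COT peaks of deciles 5 and 10, whatever their EM partners, the shares were 86.4 and 48.4%. Over all EM peptide peaks of these deciles they were 98.1 and 51.3%. In these deciles losses thus stood below both backgrounds, and in decile 10 less far below all COT peaks than below those present in all 3 lists. Gains stood near the peaks present in all 3 lists, and in decile 10 above the share over all EM peptide peaks. Over the 20 chromosomes, which are not replicates, the share with an MM peak ran from 83.8 to 91.8% for gains and from 21.1 to 28.7% for losses. The choice by the anti-recombinant antibody is in both ranges, so their distance adds nothing to the contrast over the genome.

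**Figure D2:**
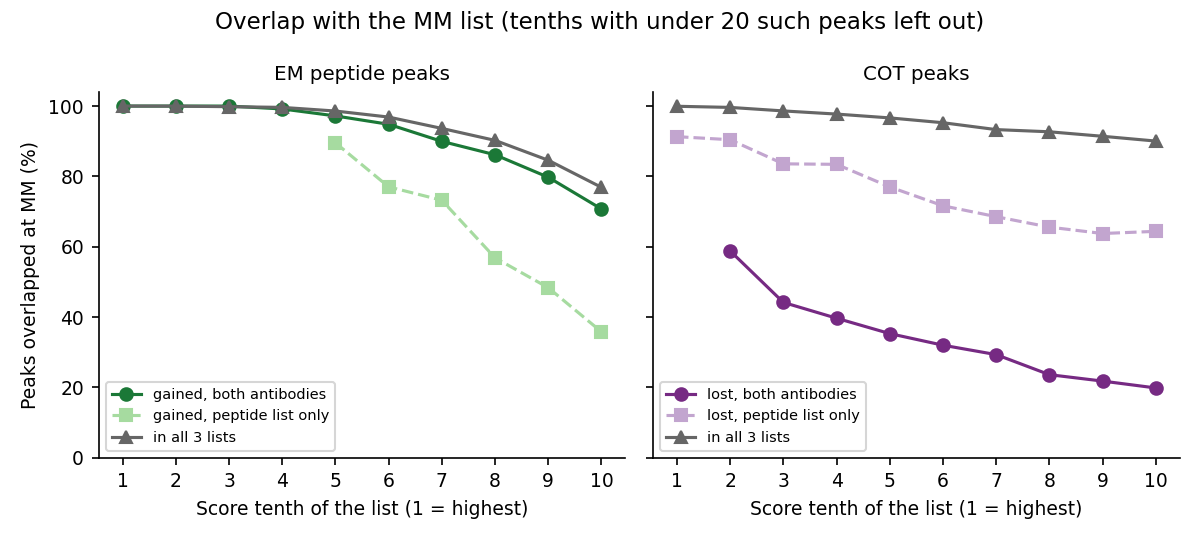
Share of peaks overlapped by an MM peak (%, y axis) in each score decile (x axis, 1 is the strongest) of the EM peptide list (left) and the COT list (right). Gains found with both antibodies run close to the peaks present in all 3 lists (97.2 against 98.6% in decile 5), whereas losses found with both lie far under them (35.3 against 96.6%). The share over all COT peaks, not drawn, was 86.4% in decile 5 and 48.4% in decile 10.

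Gains and losses were narrower than shared sites. Gains found with both antibodies had a median width of 250 bp (quartiles 200 and 350 bp) and gains of the peptide list only 150 bp (100 and 200 bp), against 400 bp (300 and 500 bp) for EM peptide peaks present in all 3 lists. Losses found with both antibodies had a median of 150 bp (100 and 200 bp) and losses from the peptide list only 200 bp (150 and 300 bp), against 350 bp (250 and 450 bp) for COT peaks present in all 3. In covered sequence the gains found with both antibodies came to 2.05 Mb, or 11.9% of the EM peptide list. The losses found with both came to 1.66 Mb, or 10.4% of the COT list. Wider peaks score higher in these lists, and within a decile the median widths of differences found with both antibodies were equal to those of shared peaks or at most 50 bp below them, except in decile 3 of the COT list, at 300 bp for losses against 400 bp. In decile 5 the median was 300 bp for gains against 350 bp for EM peptide peaks with a COT peak, and 250 bp for losses against 300 bp for COT peaks with an EM peptide peak.

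Most gains and losses lay more than 1 kb from any peak of the other list. The median gap to the nearest COT peak was 2700 bp for gains found with both antibodies, and the median gap to the nearest EM peptide peak was 2600 bp for losses found with both. A gap of at most 200 bp was found for 475 of these gains (6.09%) and 637 of these losses (6.83%). Within 1 kb were 2097 gains (26.9%) and 2582 losses (27.7%), so that a sizeable part had a peak of the other list nearby. At the other end, 1309 gains (16.8%) and 1529 losses (16.4%) were more than 10 kb from the other list. Differences that depended on the EM list lay slightly closer, with medians of 2450 bp for gains and 2100 bp for losses, and with 9.07 and 8.70% within 200 bp.

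**Figure D3:**
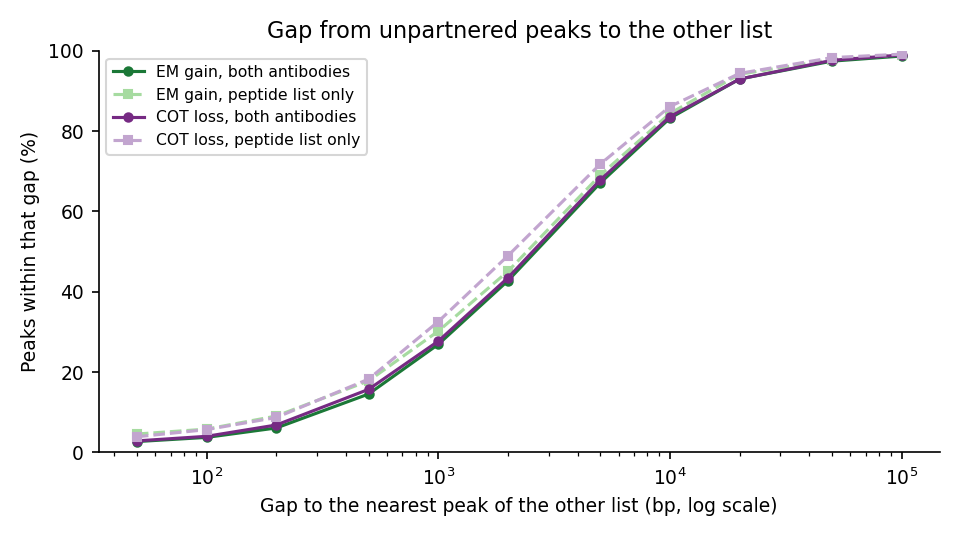
Cumulative share of unpartnered peaks (%, y axis) by the gap to the nearest peak of the other list (bp, logarithmic x axis), for gains against the COT list and losses against the EM peptide list. The curves of gains and of losses found with both antibodies nearly coincide, with medians of 2700 and 2600 bp.

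Few gains stood beside a loss. Within 500 bp, 174 gains found with both antibodies (2.23%) had a loss found with both, although 1133 of them had some COT peak at that distance. Of the gains with a COT peak so near, 15.4% had a loss of this kind there, against 18.0% of such losses in the COT list at large. In the order of their lists, gains and losses had neighbours of their own kind about as often as other peaks did. Of the 7747 gains on chromosomes, 68.3% had no such gain as the next EM peptide peak on either side, against 71.7% of the other EM peptide peaks. Of the 9278 losses, 65.6% had no such loss as the next COT peak on either side, against 67.6% of the other COT peaks. Runs of at least 3 consecutive peaks of the class numbered 187 for gains and 267 for losses, and the longest in each held 5 peaks.

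The runs of 5 were picked out after their values were seen. At chr15:7362551-7380650, 5 consecutive EM peptide peaks in 18.1 kb were gains found with both antibodies, and all 5 had an MM peak. The other runs of gains given here lay at chr9:4361901-4387650, with 4 of 5 peaks at MM, and at chr15:3681201-3707000, with 5 of 5. Among the losses, 5 consecutive COT peaks in the 9.05 kb of chr13:43919701-43928750 were absent from both EM lists, and 0 of them had an MM peak. Runs of 5 losses also lay at chr1:53989101-54000400, with 2 peaks at MM, and at chr13:27289801-27311750, with 1.

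Every chromosome held both kinds of difference, in nearly constant proportion to its peaks. Gains found with both antibodies made up 13.4% (chromosome 17) to 18.5% (chromosome 18) of the EM peptide peaks of a chromosome, with a mean of 15.8% ± 1.20 (SD over 20 chromosomes). Losses found with both made up 15.6% (chromosome 9) to 19.5% (chromosome 18) of the COT peaks, with a mean of 18.0% ± 0.912. Losses outnumbered gains on 19 of the 20 chromosomes, although over the genome gains were the more numerous (6246 against 6057) when a gap of up to 1 kb counted as shared. The exception was chromosome 9, with 397 gains and 388 losses, and the lowest ratio of gains to losses was 0.716, on chromosome 17 with 365 gains and 510 losses. The largest counts were on chromosome 13, with 513 gains and 689 losses.

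**Figure D4:**
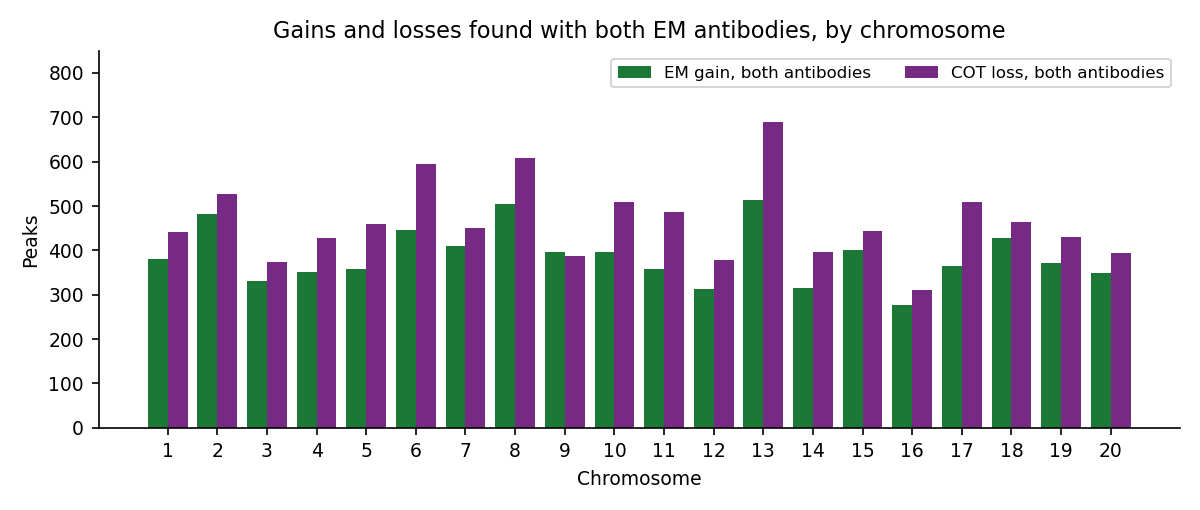
Number of peaks (y axis) on each of the 20 chromosomes (x axis) that were gains (left bar of a pair) or losses (right bar) whichever EM antibody was used. At an overlap of 1 bp losses exceed gains on all chromosomes but chromosome 9, where the counts are 397 and 388, and both are highest on chromosome 13, at 513 and 689.

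Within chromosomes the differences followed the peaks in general. The middle of the chromosomes, between 25 and 75% of their length, contained 21.8% of the gains found with both antibodies and 22.3% of the losses found with both, against 21.5 and 21.4% of the EM peptide and COT peaks present in all 3 lists. The 1 Mb window with the most gains was also the one with the most losses: chr11:4000001-5000000, with 34 gains among 166 EM peptide peaks and 41 losses among 182 COT peaks. Those are 20.5 and 22.5% of the peaks in the window. The next windows for gains were at chr4:3000001-4000000, with 32, and chr10:48000001-49000000, with 31. For losses they were chr6:3000001-4000000 and chr10:2000001-3000000, with 39 each. In each window named, the share of peaks that were gains or losses stood above that of the whole list, 15.7 and 18.0%. The windows were picked for high counts, and peak counts of other windows are not given here.

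Sites called in both lists still differed in strength and width. Most shared peaks had a single partner: 505 EM peptide peaks (1.38% of those shared) overlapped 2 or more COT peaks, and 312 COT peaks (0.849%) overlapped 2 or more EM peptide peaks. Among the 35437 pairs of 1 EM peptide and 1 COT peak, 22.7% were in the same decile of their lists, 52.7% within 1 decile and 7.42% at least 5 deciles apart. For the 39279 pairs of 1 EM peptide and 1 EM anti-recombinant peak these shares were 25.04, 58.1 and 4.12%. Deciles of lists of different length are not equal in content, and a different decile does not by itself show a change.

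A small group of sites was strong in 1 list and weak in the other. In 145 of the 4725 pairs whose EM peptide peak was in decile 1 (3.07%), the COT partner was in the lower 50% of its list. The EM anti-recombinant peaks over these 145 were all in the upper 50% of their list, as were the MM peaks. The background was high, however: over all 4725 pairs, 99.9% of the EM anti-recombinant peaks were in the upper 50%. In decile 1 were 63 of the 145 (43.4%), against 64.6% of the 4725. The strongest of these sites, chosen after its values were seen, lay at chr19:6753501-6754150. It took place 39 in the EM peptide list, 1818 in the EM anti-recombinant list, 398 at MM and 29393 at COT, with widths of 650 bp in both EM lists and 200 bp at COT.

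In the reverse direction, 83 of the 4976 pairs whose COT peak was in decile 1 (1.67%) had an EM peptide partner in the lower 50%. The other EM antibody did not give the same for all of these. The EM anti-recombinant peak was in the upper 50% of its list for 57 of the 83 (68.7%), in the lower 50% for 23, and 3 had none. Over all 4976 pairs, 97.7% were in the upper 50%. At chr7:306801-307150, for example, the EM peptide peak was in place 36267 and 150 bp wide. The EM anti-recombinant peak there was in place 265 and 600 bp wide, the MM peak in place 914 and the COT peak in place 1143. The site at chr17:39710901-39711350 stood at 37648 with the peptide antibody, 947 with the anti-recombinant antibody and 861 at COT. Both sites were likewise chosen after their values were seen.

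Shared sites were more often wider than narrower at EM. In the 30915 sets of 1 EM peptide, 1 EM anti-recombinant and 1 COT peak, the median width was 400 bp in both EM lists and 350 bp at COT. The EM peptide peak was wider than its COT partner in 53.4% of the sets, of equal width in 16.2% and narrower in 30.4%. The EM anti-recombinant peak was wider than COT in 61.1%, equal in 14.7% and narrower in 24.2%. Both differences are taken against the same COT peaks. By 200 bp or more, 13.2% of EM peptide peaks were wider than COT and 4.62% narrower, and 15.4% of EM anti-recombinant peaks were wider and 3.87% narrower. Peak width depends on the depth and threshold behind each list, which are unknown.

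**Figure D5:**
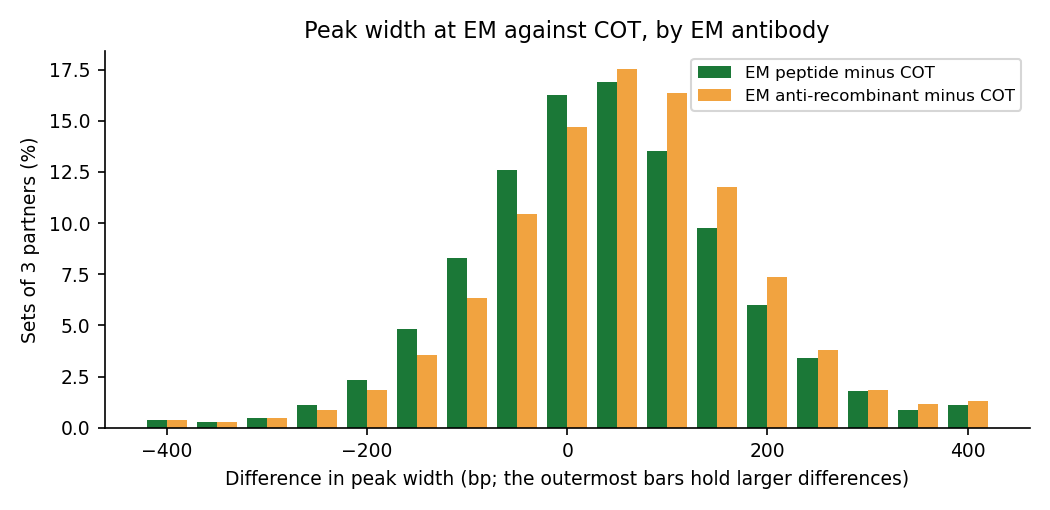
Distribution of the difference in peak width (bp, x axis, EM minus COT) over the 30915 sets of 3 partner peaks (%, y axis), for the EM peptide and the EM anti-recombinant list. Both distributions have their median at 50 bp, and positive differences make up 53.4% of the sets with the peptide and 61.1% with the anti-recombinant antibody.

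The width difference was not the same at all strengths. In sets whose COT peak was in decile 1, the median widths were 550 bp in both EM lists and 500 bp at COT. In sets whose COT peak was in decile 10, they were 300 bp in both EM lists and 100 bp at COT, and 90.8% of the EM peptide peaks were the wider. Sets picked for a weak COT peak are narrow at COT by that choice. Midpoints stayed in place: the EM peptide midpoint was within 50 bp of the COT midpoint in 78.9% of the sets and of the EM anti-recombinant midpoint in 77.0%, and over 150 bp away in 1.33% and 1.34%. The EM peptide and COT lists differ in both stage and antibody, so these shares do not separate a stage distance from an antibody distance. Partners also had to overlap, which limits how far apart their midpoints can lie.

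The largest width differences borne by both EM lists, ranked by the smaller of the differences and chosen after their values were seen, were at sites with a narrow, low-placed COT peak. At chr9:38476101-38477050 the peak was 950 bp wide in both EM lists and 100 bp at COT. Its places were 353 among the EM peptide, 2000 among the EM anti-recombinant and 47781 among the COT peaks. At chr5:470701-471650 the widths were 950 bp with the peptide antibody, 900 bp with the other and 100 bp at COT. In the opposite direction, the peak at chr7:6980551-6981000 was 450 bp wide in the EM peptide list, 250 bp in the EM anti-recombinant list and 1150 bp at COT. At chr4:3330551-3331150 the widths were 600 and 450 bp at EM and 1250 bp at COT. That peak took places 11212 and 21788 in the EM peptide and EM anti-recombinant lists, against 1025 at COT.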

How the data were processed

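ChIP and input libraries were made from whole embryos crosslinked in 1% formaldehyde for 10 minutes, with chromatin sheared to 100 to 500 bp, 3 ug of antibody and 15 PCR cycles, per the labels' protocols. Bowtie 0.12.7 and SAMtools 0.1.19 are named per the submitters' processing notes. The authors deposited 1 peak list per stage and antibody, with a score per peak. Not given in the sources used here are the peak caller, its threshold, the scale of the score and whether replicates were pooled. Peak names give Gmax275 as the build; no genome or annotation of it was used here, so no gene or sequence is given.

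All starts and widths were multiples of 50 bp when the end was read as the last base, and positions are given 1-based. Scores ranked peaks within a list, with ties going to the wider peak. Overlaps were computed in Python 3.11.15 with numpy 2.4.6, pandas 2.3.3 and scipy 1.17.1, and the overlap code was tested on simulated data. Chromosome length was the last peak end over the 4 lists. No test was run across peaks or chromosomes. Named were the 10 highest-scoring gains and losses found with both EM antibodies, the 5 of each found in the peptide comparison only, and the densest 1 Mb windows. Alternatives were reciprocal overlap of 50%, gaps of 200 bp or 1 kb, score and list-length limits, and chromosomes without scaffolds. The groups and rules were chosen with earlier results of these data known.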

Additional observations from a re-analysis of the deposited data

How the results depend on the processing

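No paired analysis was possible because the lists carry no replicate columns, and for the same reason no replicate could be left out. Of 64 recomputed values (8 results under 8 alternatives), 22 stayed close to the values above, within 1.5 times for a count and within the counting interval for a share; the cause of the other changes was not tested beyond what each setting does by construction. The results are given in the order gains, gains with both antibodies, losses, losses with both, the percentage of gains and then of losses found with both, and the percentage with an MM peak of gains and then of losses found with both. With the higher-scoring 50% of each list they were 6650, 4239, 7694, 4832, 63.7, 62.8, 86.9 and 22.4, from fewer peaks. When only the top 5000 peaks of a list by score were looked up, in the whole lists, they were 52, 52, 23, 2, 100, 8.70, 100 and 50 (1 of 2). With the first 5000 by the number in the peak name, an order that differs from the score (added after seeing the data), they were 62, 62, 18, 2, 100, 11.1, 100 and 100. Gains exceeded losses in both of these sets of 5000. They also did so for all gains and losses with lists of equal length (13749 against 13609) and for those found with both antibodies with a gap of up to 1 kb (6246 against 6057). In the other settings losses exceeded gains.

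Losses with both antibodies numbered 14063 under reciprocal overlap and 6057 with a gap of up to 1 kb, the latter added after seeing the data. The 4 percentages were 49.0, 68.6, 81.0 and 19.9 under reciprocal overlap, 63.5, 59.6, 89.4 and 26.1 with a gap of up to 200 bp, 66.9, 57.0, 91.1 and 30.5 with a gap of up to 1 kb, and 53.3, 65.9, 77.9 and 13.3 with lists of equal length (49566 peaks). Gains with both antibodies had an MM peak more often than losses with both in every setting except the first 5000 by name, where both losses had one. The lists carry no read depth, so a missing peak cannot be told from one under the threshold.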
